A study of Homo sapiens with 40 samples.

Results

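Whole-cell RNA of HEK293T cells carrying the lamin B1 peroxidase construct was compared with that of HEK293T cells carrying the mitochondrial matrix construct, before any enrichment and without a thionucleoside. HEK293T is a human embryonic kidney line that grows as an adherent culture. The libraries were chosen by their titles. All input libraries of these constructs that had received no thionucleoside were taken, which gave 8 of the 40 libraries in the series, 4 for each construct. The series maps RNA by place in the cell with APEX2, an engineered peroxidase that, when fed peroxide, activates biotin-phenol so that it attaches to RNA nearby.

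Cells of the MITO construct expressed APEX2 sent to the mitochondrial matrix, and cells of the LMNB1 construct expressed APEX2 fused to lamin B1. In each construct, the RNA arm (2 libraries) had received 0.5 mM biotin-phenol for 30 min and 1 mM hydrogen peroxide for 1 min, and the ctrl arm (2 libraries) had received the peroxide without biotin-phenol. All 8 libraries were polyA-selected and made from total RNA that was not bound to streptavidin. A further 2 LMNB1 and 2 MITO inputs came from cells given 100 uM 6-thioguanosine (s6G) for 5 h together with the full labelling. These 4 libraries were kept out of the main comparison and used as a separate set. The sources used here do not say whether either line was a clone or a pool, or whether libraries of a group came from separate cultures. P-values therefore measure only the spread between these libraries, which may be technical. Each construct is a line of its own, so the fusion protein and any other difference between the 2 lines cannot be told apart.

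Lamins are intermediate filament proteins that form a mesh, the nuclear lamina, on the inner face of the nuclear envelope. Lamin B1 stays attached to the inner nuclear membrane through a farnesyl group, and lamin A and lamin C come from the LMNA gene. The lamina anchors inner membrane proteins and nuclear pores and lies against gene-poor, weakly transcribed chromatin. Raised lamin B1 from an additional gene copy is the known cause of an adult-onset leukodystrophy.

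The 8 libraries held 3913738 to 6132219 counts. Among HEK293T markers, VIM (145 to 366 CPM, counts scaled to library size), CDH2 (67.9 to 102 CPM) and NEFL (56.5 to 137 CPM) were present in every library, PAX2 was low (1.85 to 10.7 CPM) and LHX1 had at most 2 counts. The blood cell markers PTPRC, CD3E and MS4A1, the endothelial marker CDH5 and the epithelial keratins KRT7, KRT19 and KRT5 had no count in any library. Summed over each list, blood markers reached 6.14 CPM in LMNB1 and 7.90 CPM in MITO libraries at most, endothelial markers 2.098 and 5.47 CPM, fibroblast markers 69.3 and 83.6 CPM (mostly COL1A1), and epithelial markers 22.3 and 23.1 CPM. The 8 libraries also fell into 2 sets that cross the constructs: MITO RNA 1, MITO ctrl 2, LMNB1 RNA 2 and LMNB1 ctrl 2 deviated together from their group means, as did the other 4. Thus 3 of the groups followed their numbers, and the numbers of MITO RNA ran the other way. MITO RNA 1 correlated at 0.99 with MITO ctrl 2 but at 0.94 with MITO RNA 2 (Pearson's r of log2 CPM across 8979 genes, which are not independent), and LMNB1 RNA 1 correlated at 0.98 with LMNB1 ctrl 1 but at 0.95 with LMNB1 ctrl 2. The labels name no batch that matches the sets. They were read from the same counts that are tested, so calls from a fit with the sets as a term are given as a description beside the calls of the fit without them, to which "called" refers below unless the sets are named.

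LMNB1 itself, at chr5:126776623-126837020 (GRCh38.p14), checked the labels. It read 205, 321, 290 and 226 CPM in the MITO libraries and 2721, 2150, 3066 and 2287 CPM in the LMNB1 libraries (here and below in the order RNA 1, RNA 2, ctrl 1, ctrl 2). The groups lay far apart, with every LMNB1 library well above the highest MITO library. The mean was 2556 ± 418 CPM (SD, n = 4) against 261 ± 54.3 CPM (SD, n = 4), and the fitted log2 fold change was 3.29 (SE 0.19, adjusted p = 4.12e-05 by edgeR's quasi-likelihood test). Reads of the fusion construct and of the cell's own gene cannot be told apart in these counts. In the s6G inputs LMNB1 read 170 and 151.3 CPM in MITO cells and 5234 and 4114 CPM in LMNB1 cells.

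Among the lamins and their partners LMNB1 had by far the largest difference. Of 21 tested genes for lamins and inner nuclear membrane proteins, LMNB1 rose and the other 20 did not pass the adjusted p of 0.05 by edgeR. With the sets as a term 5 of the 21 passed, namely LMNB1, LMNB2, SYNE2 and TMEM201 above 0 and SYNE1 below. The median log2 fold change of the 21 was 0.07, beside a median of 0.00 over all 13964 genes tested. LMNB2, which encodes the other B-type lamin, read 459, 535, 514 and 473 CPM in MITO libraries and 641, 609, 535 and 618 CPM in LMNB1 libraries, a log2 fold change of 0.28 (SE 0.11, edgeR adjusted p = 0.256, and 0.0329 with the sets as a term). Its groups did not overlap, but the lowest LMNB1 library lay right beside the highest MITO library. LMNA, which encodes lamins A and C, read 68.8 to 107 CPM in MITO libraries and 78.7 to 90.6 CPM in LMNB1 libraries (log2 fold change -0.12, SE 0.14, edgeR adjusted p = 0.769). LBR, the lamin B receptor of the inner nuclear membrane, read 278 to 373 CPM against 259 to 332 CPM, and its groups overlapped. EMD, which encodes emerin, gave a log2 fold change of 0.00 (SE 0.10). BANF1, which encodes a DNA-binding partner of the LEM-domain proteins, gave 0.17 (SE 0.20), and SYNE1 on 6q, which encodes a nesprin that ties the nucleus to the cytoskeleton, gave -0.59 (SE 0.29). Neither passed the edgeR test (adjusted p = 0.77 and 0.402), but SYNE1 did with the sets as a term (edgeR adjusted p = 0.00362). SYNE1 lies in the 6q stretch described below, whose genes had a median of -0.51. None of the 8 genes for the prenylation and processing of lamins was called (median -0.04), nor any of 29 nuclear pore genes (median 0.03), 24 importin and exportin genes (median 0.00) or 24 heterochromatin genes (median 0.02). With the sets as a term 1, 10, 5 and 5 of these were called, in both directions except the first, beside 17.4% of all genes.

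Across all genes, 180 of 13964 passed the edgeR test (1.29%): 97 were higher in LMNB1 cells (0.695%) and 83 lower (0.594%). The 4 and 4 libraries of every called gene did not overlap, as was also the case for 1566 (11.2%) of all genes tested. Without any 1 of the 8 libraries the count fell to between 47 and 90, and with DESeq2 it was 543. With the 2 sets of libraries as a term it was 2424 (17.4%), 1250 higher (8.95%) and 1174 lower (8.41%), and these included all 180. The 12 highest and 12 lowest called genes of at least 16 CPM or so (a mean log2 CPM of 4) were taken as the leading genes, and 20 of these 24 stayed called whichever library was left out. The exceptions were SPINT2, RNASET2, HMOX1 and TRO, with adjusted p up to 0.0743, 0.128, 0.126 and 0.0865.

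**Figure D1:**
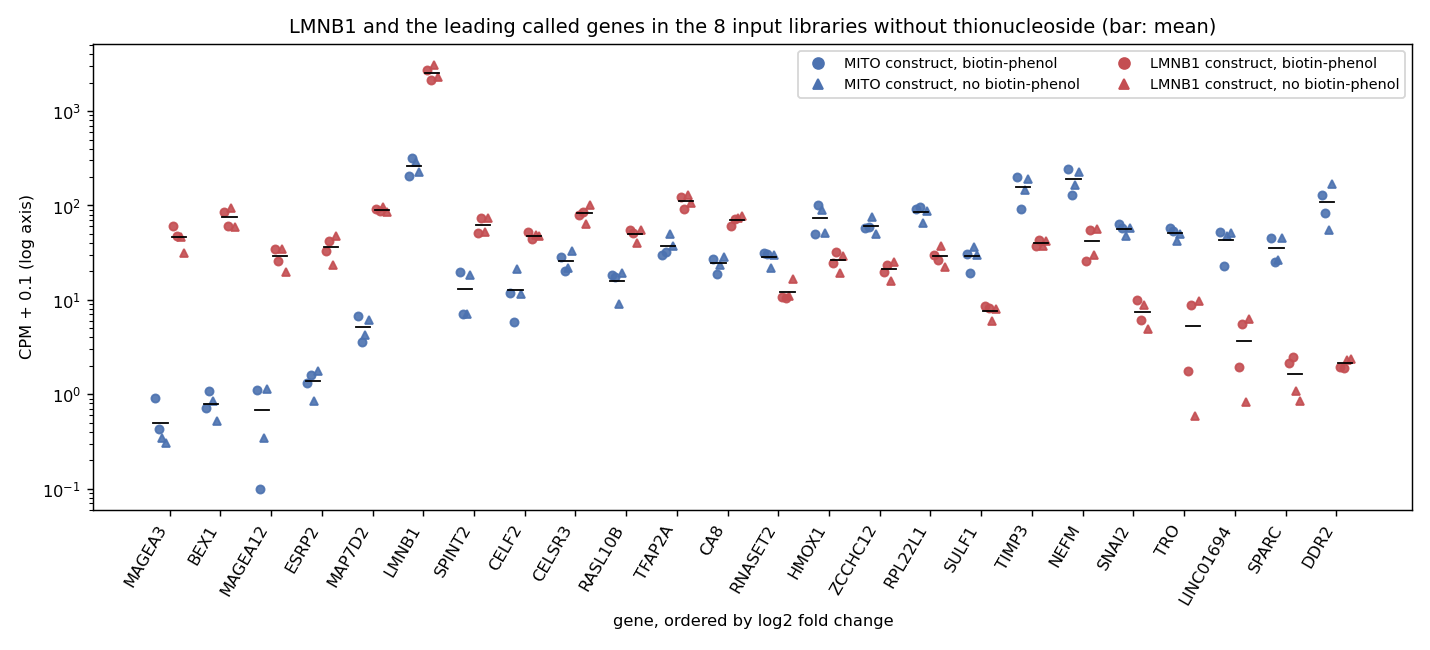
CPM (plus 0.1, log axis) of LMNB1 and the other leading genes in each of the 8 libraries, MITO in blue and LMNB1 in red, circles with and triangles without biotin-phenol, bars at group means. LMNB1 has by far the highest level, at 2150 to 3066 CPM in its own cells, while genes such as MAGEA3 and BEX1 go from about 1 CPM or less to 31.0 CPM or more.

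The genes that rose included ESRP2, SPINT2 and TFAP2A. ESRP2, an epithelial regulator of splicing, read 1.22, 1.49, 0.740 and 1.66 CPM in MITO libraries and 32.7, 42.0, 23.5 and 46.9 CPM in LMNB1 libraries, a log2 fold change of 4.79 (SE 0.33, edgeR adjusted p = 0.000156). SPINT2, a membrane-bound inhibitor of serine proteases, read 6.90 to 19.6 CPM in MITO libraries and 51.0 to 74.0 CPM in LMNB1 libraries (log2 fold change 2.27, SE 0.36). TFAP2A, which encodes the transcription factor AP-2 alpha, read 29.8, 32.0, 49.8 and 37.2 CPM against 124, 92.3, 128 and 106 CPM (log2 fold change 1.61, SE 0.16), and it lies in the 6p stretch described below. For none of these did the highest MITO library reach the lowest LMNB1 library. MAL2, a membrane protein of transcytosis named here after its values were seen, had 1 count in the 4 MITO libraries together and 411 in the 4 LMNB1 libraries, a ratio of 350 (95% counting interval 62.5 to 13875). Of the list of epithelial markers 2 were tested and neither was called (median 0.09): CDH1, which encodes E-cadherin, read 2.81 to 19.1 CPM against 4.89 to 17.5 CPM. ESRP1, the paralog of ESRP2, had at most 2 counts in any library.

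The other leading genes that rose serve a range of functions. MAP7D2, a microtubule-binding protein, read 6.68, 3.47, 4.19 and 6.03 CPM in MITO libraries and 92.0, 86.6, 96.6 and 85.6 CPM in LMNB1 libraries (log2 fold change 4.14, SE 0.20, edgeR adjusted p = 1.36e-05). Its LMNB1 libraries lay close together, with an SD of 5.11 CPM. CELSR3, an adhesion receptor with cadherin repeats, read 20.0 to 32.7 CPM against 63.8 to 102 CPM (log2 fold change 1.69, SE 0.21) and lies in a stretch of 3p described below. CELF2, a splicing regulator, read 5.78 to 21.2 CPM against 43.6 to 52.2 CPM (log2 fold change 2.00, SE 0.29). RASL10B, a small GTPase of the Ras superfamily, rose by 1.67 (SE 0.22) and CA8, a carbonic anhydrase relative without enzyme activity, by 1.54 (SE 0.15) on the log2 scale.

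The genes that fell included DDR2, SPARC, SNAI2, TIMP3 and SULF1. DDR2, a collagen-binding receptor tyrosine kinase, read 129, 83.1, 54.7 and 169 CPM in MITO libraries and 1.85, 1.80, 2.20 and 2.28 CPM in LMNB1 libraries (log2 fold change -5.74, SE 0.41, edgeR adjusted p = 0.000228). SPARC, a secreted collagen-binding glycoprotein, read 44.8, 25.3, 26.6 and 45.5 CPM against 2.02, 2.40, 0.978 and 0.759 CPM (log2 fold change -4.52, SE 0.37, edgeR adjusted p = 0.000613). Both genes were under 3 CPM in every LMNB1 library. SNAI2, which encodes the repressor Slug, read 64.0, 57.0, 46.8 and 57.2 CPM against 9.94, 5.99, 8.80 and 4.85 CPM (log2 fold change -2.95, SE 0.22, edgeR adjusted p = 0.000262). TIMP3, a matrix-bound inhibitor of metalloproteinases, read 199, 91.3, 144 and 189 CPM against 36.9, 42.7, 36.7 and 41.7 CPM (log2 fold change -1.98, SE 0.24). SULF1, an enzyme that trims sulfate from heparan sulfate, fell by 1.90 on the log2 scale (SE 0.23), from 19.2 to 36.2 CPM to 5.87 to 8.42 CPM. Of 33 tested genes in the list of extracellular matrix and secreted proteins, SPARC and TIMP3 were the 2 called, both lower, and the median log2 fold change was -0.21. The list's 10 members above 0 and 23 below 0 compare with 0.00 as the median of all genes. None of its collagen genes passed the test. COL5A2 (-1.27) and COL3A1 (-0.77) were the lowest of them, and the others ran from -0.30 (COL6A1) to 0.22 (COL18A1). COL12A1, a collagen gene outside the list and named after its values were seen, was called higher (log2 fold change 3.04, edgeR adjusted p = 0.014). With the sets as a term 13 of the 33 were called (39.39%), 4 higher and 9 lower. In that fit 17.4% of all genes were called, 8.95% higher and 8.41% lower.

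NEFM, which encodes the medium neurofilament chain and is expressed in HEK293T cells, read 246, 128, 164 and 224 CPM in MITO libraries and 25.9, 55.3, 29.6 and 56.0 CPM in LMNB1 libraries (log2 fold change -2.18, SE 0.31, edgeR adjusted p = 0.0139). Its partner NEFL gave -0.57 and did not pass (adjusted p = 0.295). VIM, which encodes vimentin, the intermediate filament of mesenchymal cells, read 272, 366, 264 and 271 CPM against 158, 145, 203 and 149 CPM (log2 fold change -0.84, SE 0.15, edgeR adjusted p = 0.0364), a call lost in 7 of the 8 fits without 1 library (adjusted p up to 0.155). VIM also lies in a stretch of chromosome 10 whose genes were lower as a group, described below. Together with NEFM it made 2 called, both lower, of 7 tested HEK293T markers. TRO, which encodes the adhesion protein trophinin, differed inside the LMNB1 cells: it read 1.68 and 0.489 CPM in the libraries numbered 1 and 8.69 and 9.71 CPM in those numbered 2, against 42.2 to 57.5 CPM in MITO libraries. The long noncoding RNA LINC01694 had the same split, at 1.85 and 0.734 against 5.39 and 6.22 CPM, below 23.0 to 52.0 CPM in MITO libraries.

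The remaining leading genes that fell were ZCCHC12, RPL22L1, HMOX1 and RNASET2, the last of which lies in the 6q stretch described below. RPL22L1, a paralog of the ribosomal protein RPL22, read 90.9, 97.1, 64.8 and 86.9 CPM in MITO libraries and 30.0, 26.2, 37.2 and 22.5 CPM in LMNB1 libraries (log2 fold change -1.56, SE 0.18, edgeR adjusted p = 0.0048). None of 77 cytosolic ribosomal protein genes was called, and their median was -0.02. With the sets as a term 5 were higher and 4 lower (11.69%), beside 17.4% of all genes. HMOX1, which encodes the stress-induced heme oxygenase, read 49.4, 101, 89.0 and 51.4 CPM against 24.8, 32.4, 19.3 and 29.0 CPM (log2 fold change -1.46, SE 0.26, edgeR adjusted p = 0.0354). It was the 1 called of 19 tested NRF2 target genes, whose median was 0.01. In the fit with the sets 3 of the 19 were higher and 3 lower (31.58%). CTSZ, the protease cathepsin Z, read 9.32, 10.4, 5.42 and 11.6 CPM against 0.505, 0.300, 0 and 0.607 CPM (log2 fold change -4.52, SE 0.52). It was the 1 called of 30 tested lysosomal genes, of which 19 lay above 0. In the fit with the sets 7 of the 30 were higher and 3 lower (33.33%). PCDHGC3, the call among 3 tested clustered protocadherins, read 4.93 to 13.8 CPM against 0.245 to 1.82 CPM. TM7SF2, a sterol reductase, was the call among 24 cholesterol genes and read 19.2 to 28.1 CPM against 40.8 to 51.4 CPM (log2 fold change 1.01, SE 0.15), and DUSP2 was the call among 32 immediate-early genes and ZNF675 among 197 KRAB zinc finger genes, both lower. The calls of PCDHGC3 and TM7SF2 were lost in 7 and 5 of the 8 fits without 1 library, and those of DUSP2 and ZNF675 in all 8. In the fit with the sets the protocadherins had 0 higher and 2 lower (66.67%) and the cholesterol genes 5 and 1 (25%). The immediate-early genes had 4 and 6 (31.25%) and the KRAB zinc finger genes 13 and 12 (12.69%).

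The X chromosome held 18 called genes among 510 tested (3.53%), 10 higher and 8 lower, beside 1.29% of all genes tested. Among them were members of the BEX cluster, described below, and of a cluster of cancer-testis genes. MAGE-A and CSAG genes lie side by side at Xq28, are expressed in germ cells and many tumours, and are known to be silenced by DNA methylation in most other cells. Their promoters are printed because close relatives of this cluster went in opposite directions between the 2 lines. Each line below is the 250 bases before the gene's start, 5′ to 3′ on the gene's strand, from RefSeq on GRCh38.p14 (MAGEA3 at chrX:152698544-152698793 on the plus strand, MAGEA12 at chrX:152733507-152733756 on the plus strand and MAGEA2 at chrX:152753885-152754134 on the minus strand). Capitals mark the longest run of letters, 27 bases, that a script found in the windows of MAGEA3, MAGEA12, MAGEA2, MAGEA2B and MAGEA6.
MAGEA3: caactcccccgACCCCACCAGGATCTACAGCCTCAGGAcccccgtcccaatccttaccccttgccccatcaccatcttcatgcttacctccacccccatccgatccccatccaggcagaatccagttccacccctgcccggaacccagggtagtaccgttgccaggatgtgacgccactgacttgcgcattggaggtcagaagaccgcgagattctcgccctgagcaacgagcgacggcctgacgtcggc
MAGEA12: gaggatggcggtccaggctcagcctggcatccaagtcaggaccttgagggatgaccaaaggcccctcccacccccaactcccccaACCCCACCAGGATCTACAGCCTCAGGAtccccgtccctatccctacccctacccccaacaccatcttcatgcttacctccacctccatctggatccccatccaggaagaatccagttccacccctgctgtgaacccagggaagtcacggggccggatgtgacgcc
MAGEA2: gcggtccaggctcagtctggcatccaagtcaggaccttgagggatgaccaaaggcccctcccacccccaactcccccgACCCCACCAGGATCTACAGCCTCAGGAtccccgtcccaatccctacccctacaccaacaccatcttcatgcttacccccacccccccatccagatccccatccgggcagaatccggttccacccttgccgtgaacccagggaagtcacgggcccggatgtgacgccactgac
The shared run starts 239, 165 and 172 bases before the start of MAGEA3, MAGEA12 and MAGEA2. On either strand it occurred in 6 of 35116 promoter windows (0.0171%), all of these 5 MAGE-A genes. The 250 bases hold 15 CpG in MAGEA3, 5 in MAGEA12 and 9 in MAGEA2, beside a median of 11 over all windows. Because the run lies at different distances from the annotated starts, the windows cover different parts of the related sequence. The CpG counts therefore depend on the starts and do not compare like bases. MAGEA2B, for example, holds 11 in a window set 42 bases off that of MAGEA2. The RefSeq windows of MAGEA3 and MAGEA6 were identical over all 300 bases, and those of MAGEA2 and MAGEA2B over the 258 bases they share.

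LMNB1 cells carried MAGEA3, MAGEA12 and CSAG1 RNA, and MITO cells carried MAGEA2, MAGEA2B and CSAG3 RNA. MAGEA3 had 356, 317, 187 and 204 counts in LMNB1 libraries and 4, 2, 1 and 1 in MITO libraries (log2 fold change 6.79, SE 0.31, edgeR adjusted p = 9.04e-06). MAGEA12 had 205, 173, 142 and 131 counts against 5, 0, 1 and 5 (log2 fold change 5.62, SE 0.52, edgeR adjusted p = 0.00127), and CSAG1, its neighbour, had 53, 44, 50 and 40 against 2, 1, 2 and 1. In the opposite direction MAGEA2 had no count in any LMNB1 library and 24, 33, 12 and 19 in MITO libraries, at least 34.4-fold lower in LMNB1 cells when 3 counts are allowed to the whole group. MAGEA2B, its copy, had none against 18, 16, 16 and 16 (at least 25.8-fold lower), and CSAG3 had 2 in all against 26, 39, 27 and 17 (ratio 0.0156, 95% counting interval 0.00187 to 0.0579). The calls of MAGEA3, MAGEA12, CSAG1, MAGEA2 and CSAG3 held in each fit without 1 library, and that of MAGEA2B was lost in 2 (adjusted p up to 0.0562). MAGEA6, whose promoter window equals that of MAGEA3, had 14, 6, 2 and 3 counts in LMNB1 libraries and 2 in all MITO libraries, too few to be tested, and summed to 6 and 5 in the s6G inputs.

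These copies are nearly identical in sequence, and the sources used here do not say how reads matching several of them were counted. The level of a single copy is therefore uncertain. The same split appeared in the s6G inputs, where MAGEA3 summed to 511 counts in LMNB1 cells and 0 in MITO cells, and MAGEA2 to 1 and 52. In the s6G inputs of the other constructs the cluster was nearly silent: MAGEA3 had 47 counts over 4 libraries of the ERM construct (endoplasmic reticulum membrane) and 11 over 2 of the NES construct (cytosol), and MAGEA2 had 2 and 0. CSAG1, CSAG3, MAGEA2 and MAGEA2B were named after their values were seen, as were the X-linked genes of the next paragraph other than BEX1.

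**Figure D2:**
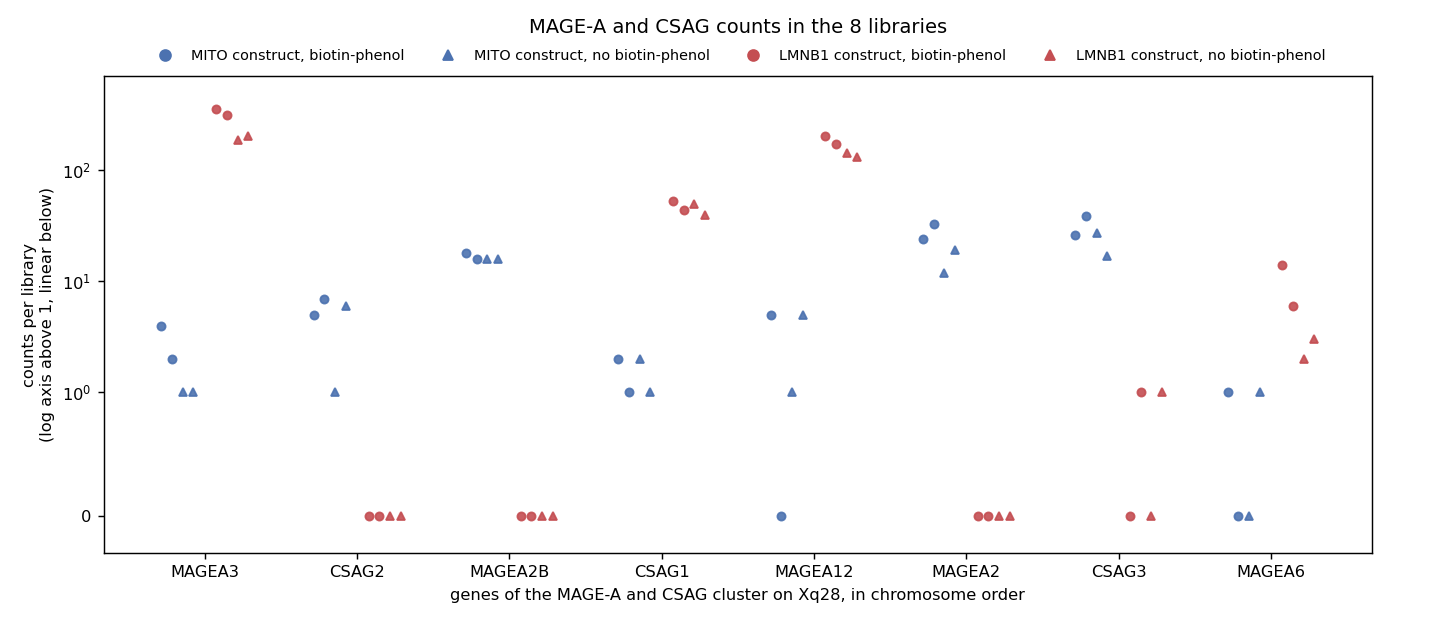
Counts per library (log axis above 1, linear below) of the MAGE-A and CSAG genes of Xq28 in chromosome order, MITO in blue and LMNB1 in red, circles with and triangles without biotin-phenol. MAGEA3, CSAG1 and MAGEA12 are high in red, and MAGEA2B, MAGEA2 and CSAG3, which lie between and beside them, in blue. CSAG2 had 5, 7, 1 and 6 counts in MITO libraries and none in LMNB1 libraries, too few to be tested.

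Neighbours also parted in the BEX cluster of Xq22, small genes known from brain. BEX1 had 511, 403, 387 and 393 counts in LMNB1 libraries and 3, 6, 3 and 2 in MITO libraries (log2 fold change 6.69, SE 0.30, edgeR adjusted p = 9.04e-06). BEX5 rose by 1.57 (SE 0.24) and BEX4 fell by 0.95 (SE 0.17) on the log2 scale, whereas BEX2 (-0.18, SE 0.17) and BEX3 (-0.48, SE 0.12) did not pass. So 1 member of the cluster went from near 0 to about 75.2 CPM while its neighbours were already expressed in both lines. MAGEB2 on Xp had 162, 119, 99 and 114 counts in LMNB1 cells, and 0, 7, 0 and 0 in MITO cells. The calls of BEX4 and BEX5 were lost in 8 and 5 of the fits without 1 library.

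Smaller differences lay side by side along the chromosomes. A running median of the log2 fold change over 41 neighbouring expressed genes stayed past 0.25 in either direction for at least 25 genes in 10 stretches, 6 higher and 4 lower in LMNB1 cells. These stretches were chosen from the fold changes of the 8 libraries, so the values that follow for those libraries are a description without a test. The stretches hold 1342 of the 13964 tested genes (9.61%) and 88 of the 180 called genes (48.9%). Their calls were mostly small: 66 of the 85 called genes that differed by under 2-fold lay in a stretch, but 5 of the 53 that differed by over 4-fold. Outside them the median log2 fold change of 9396 expressed genes was 0.01.

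The deepest drop was on 6q, from CEP57L1 to PDCD2 near the end of the arm (chr6:109095163-170584637). Of its 158 expressed genes, 148 were lower in LMNB1 cells, with a median log2 fold change of -0.51, and 22 were called. Per library, the median deviation of these genes from the mean of the 8 libraries was 0.25, 0.21, 0.31 and 0.22 (log2) in MITO libraries and -0.28, -0.24, -0.16 and -0.28 in LMNB1 libraries. The libraries of the constructs therefore did not overlap, and this held for each of the 10 stretches. The genes include PSMB1, TBP and QKI. PSMB1, a proteasome subunit, read 176, 276, 222 and 192 CPM against 107, 118, 112 and 109 CPM, TBP, the TATA-binding protein, 34.1 to 41.3 against 17.01 to 23.7 CPM, and QKI, an RNA-binding regulator of splicing, 167 to 179 against 75.5 to 96.8 CPM. PDCD2 fell from 141 to 180 CPM to 59.1 to 79.0 CPM, a log2 fold change of -1.19 (SE 0.13, edgeR adjusted p = 0.00353). The calls of QKI and PDCD2 held without any 1 library, those of PSMB1 and TBP were lost in 4 and 8 of the 8 fits, and all 4 genes were named after their values were seen.

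The other stretches of lower genes were on chromosome 10 from IDI1 to SHLD2, across the centromere (chr10:1039152-87191465, 218 of 230 genes lower, median -0.38), on 13q from USPL1 to UGGT2 (chr13:30617920-96053401, 98 of 108 lower, median -0.41) and at the end of 2q from RAMP1 to D2HGDH (chr2:237858880-241768811, 26 of 28 lower, median -0.36). The 13q stretch includes DIAPH3, an actin-nucleating formin, at 48.0 to 65.3 CPM in MITO libraries and 24.1 to 33.2 CPM in LMNB1 libraries. On 2q lies NDUFA10, the only called gene of 73 nuclear-encoded respiratory chain subunits, at 117 to 137 against 80.2 to 92.2 CPM. CELF2 rose although it lies in the chromosome 10 stretch, the only 1 of 13 calls there to do so.

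Stretches of higher genes were on 22q from DUXAP8 to GUCD1 (54 of 58 genes higher, median 0.42, 9 called), on 3p from GORASP1 to ATXN7 (150 of 160, median 0.41, 11 called) and from TRNT1 to FBLN2 (43 of 48, median 0.29, 2 called), on 7q from CAPZA2 to DYNC2I1 (126 of 133, median 0.35, 7 called), on 1p from EEIG2 to TRIM45 (59 of 62, median 0.34, 8 called) and on 6p from DUSP22 to BTN2A1 (72 of 78, median 0.33, 4 called). Several calls that stood alone in their pathway lists, in the fit without the sets, sat here. CDC45, a helicase factor and the only called gene of 38 DNA replication genes, lies on 22q. It read 87.3 to 108 CPM in MITO libraries and 145 to 158 CPM in LMNB1 libraries. The list as a whole leaned the same way, with 28 of the 38 above 0 (median 0.15, and 0.15 for the 35 outside the stretches). In the fit with the sets 11 of the 38 were called, all higher (28.95%), beside 8.95% of all genes called higher. USP18, a protease that removes the interferon-induced modifier ISG15, was the only call of 20 interferon-stimulated genes and lies on 22q too (12.5 to 17.01 against 24.5 to 34.0 CPM). SARS1, the seryl-tRNA synthetase, lies on 1p at 277 to 308 against 433 to 459 CPM. Leaving out 1 library ended the calls of CDC45, USP18 and NDUFA10 in 7, 8 and 8 of 8 fits and that of SARS1 in 4. In the fit with the sets the interferon-stimulated genes had 3 higher and 3 lower (30%). The respiratory chain subunits had 1 and 3 (5.48%), beside 17.4% of all genes called.

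**Figure D3:**
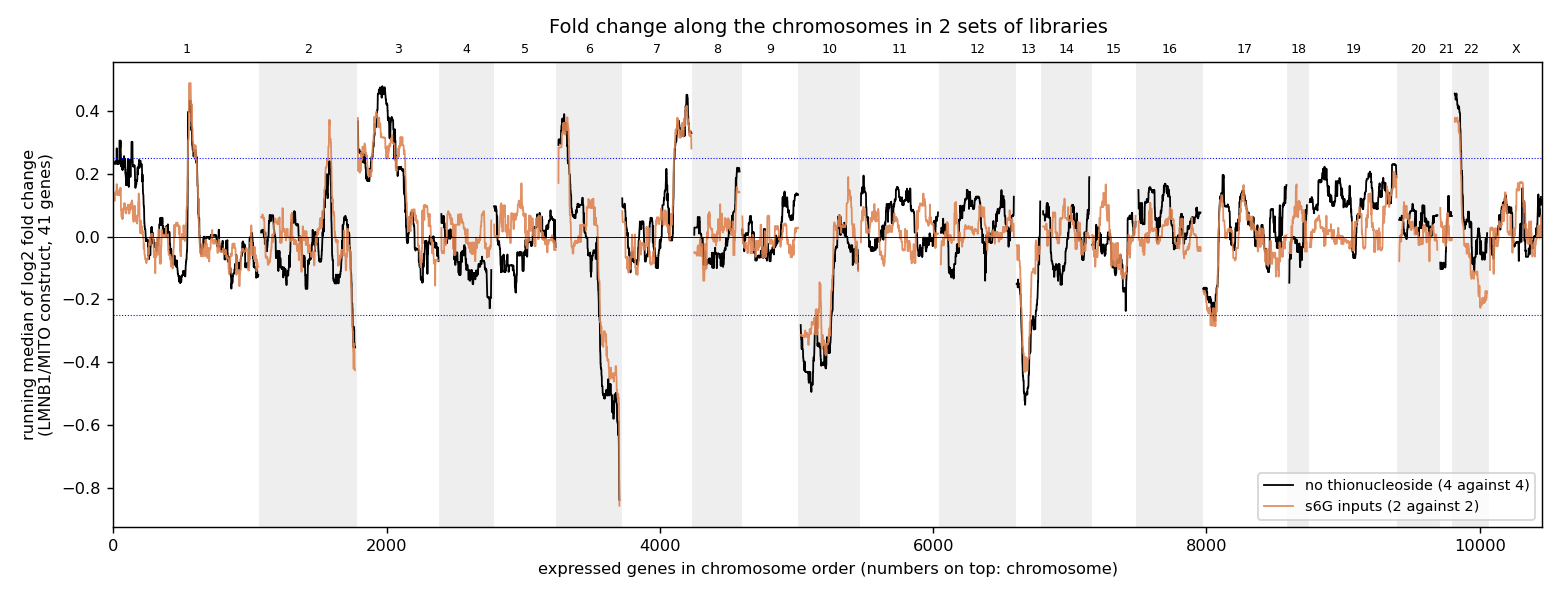
Running median of the log2 fold change (LMNB1 over MITO, 41 genes) along the expressed genes in chromosome order, for the libraries without thionucleoside (black) and the s6G inputs (orange); dotted lines mark 0.25 in either direction, and the 10 genes at each chromosome end are not drawn. Both lines leave the dotted band together on 1p, 2q, 3p, 6p, 6q, 7q, 10, 13q and 22q.

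The s6G inputs, which had no part in choosing the stretches, gave the same direction for all 10. On 6q, 148 of 158 genes were again lower (median -0.41), on chromosome 10 200 of 230 (median -0.31), on 13q 83 of 108 (median -0.28) and on 2q 26 of 28 (median -0.44). On 3p (GORASP1 to ATXN7) 143 of 160 genes were again higher (median 0.32), on 7q all but 10 of 133 (median 0.35), on 22q 50 of 58 (median 0.36), on 6p 65 of 78 (median 0.30), on 1p 53 of 61 (median 0.39) and on 3p (TRNT1 to FBLN2) 34 of 48 (median 0.26). The median of genes outside the stretches in the s6G inputs was 0.01.

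The s6G inputs of the NES construct (2 libraries) served both lines as a shared reference, and those of the ERM construct (4 libraries) were set beside them; the differences were not tested. On 6q the median difference from NES was -0.43 in LMNB1, -0.02 in MITO and 0.02 in ERM cells, on 2q -0.42, 0.03 and 0.05, on 7q 0.29, -0.10 and 0.02, and on 1p 0.29, -0.13 and -0.02. In these 4 the LMNB1 cells lay farthest from the other constructs. On 22q it was 0.10 in LMNB1, -0.30 in MITO and 0.05 in ERM cells, on 6p 0.14, -0.21 and 0.09, on 3p (TRNT1 to FBLN2) 0.16, -0.21 and 0.14, and on 3p (GORASP1 to ATXN7) 0.17, -0.18 and 0.19. There the MITO cells were the ones below the other 3 constructs. On chromosome 10 the values were -0.38, -0.13 and -0.14, so NES lay above all the others, and on 13q they were -0.43, -0.19 and -0.06. The number of DNA copies was not measured in these libraries, and its part in the stretches was not tested.

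**Figure D4:**
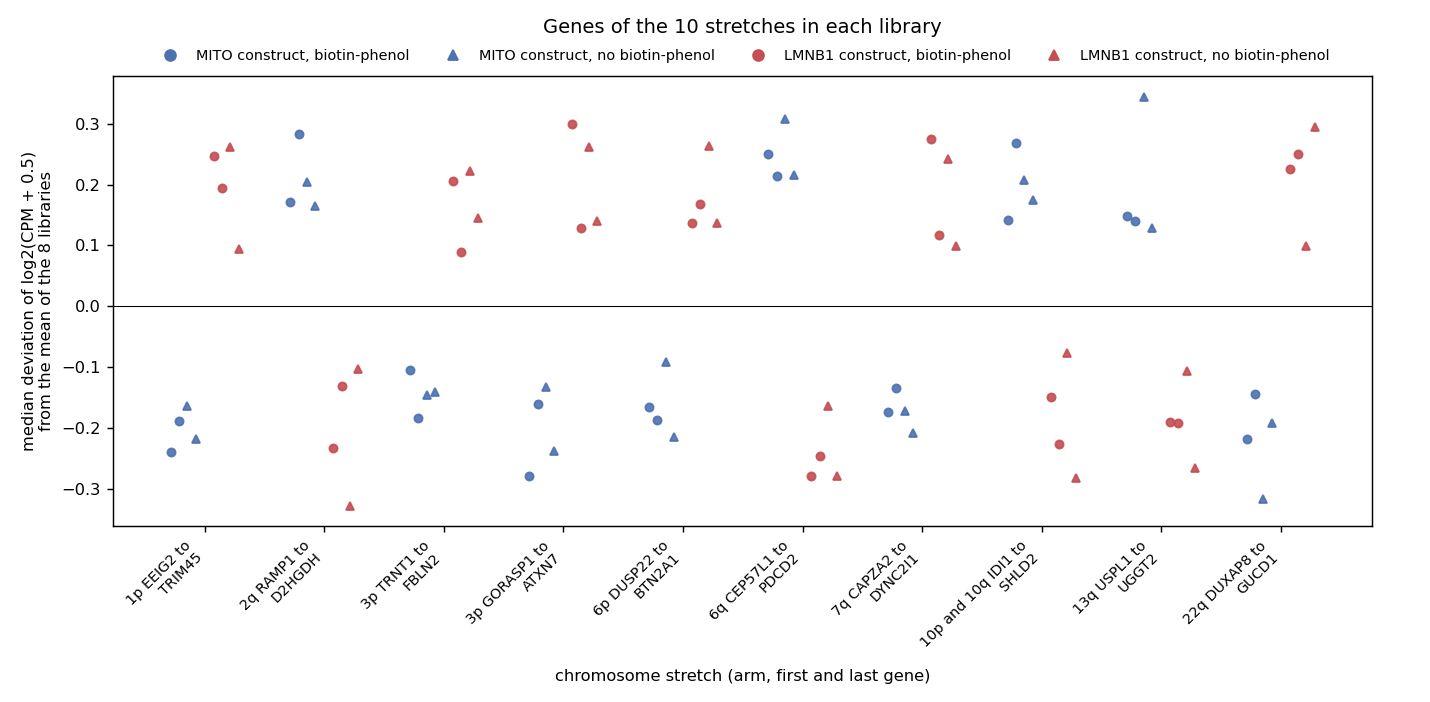
Median deviation of log2(CPM + 0.5) from the mean of the 8 libraries for the genes of each stretch, MITO in blue and LMNB1 in red, circles with and triangles without biotin-phenol. In all 10 stretches the 4 red points lie on the other side of 0 from the 4 blue ones, at most 0.34 away from 0.

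Pathway lists held few calls in the fit without the sets. Of 37 tested genes of the integrated stress response, 31 lay below 0 (median -0.26, and -0.11 in the s6G inputs), yet SARS1 was the only call and it was higher. ATF4, the transcription factor of this response, read 938 CPM on average in MITO libraries and 731 CPM in LMNB1 libraries (log2 fold change -0.36, edgeR adjusted p = 0.188). ALDH1L2, a mitochondrial folate enzyme, gave -0.99 (adjusted p = 0.0715) and the glutathione-degrading enzyme CHAC1 -2.00 (adjusted p = 0.25). No call was made among 26 p53 targets (median -0.03), 18 heat shock genes (median -0.04), 20 ER stress genes (median 0.06), 35 mitosis genes (median -0.09), 72 mitochondrial ribosomal proteins (median 0.00) or 34 HOX genes (median 0.14). With the sets as a term the stress response list had 2 higher and 17 lower, the p53 targets 4 and 4, the heat shock genes 1 and 2, the ER stress genes 5 and 1, the mitosis genes 1 and 3, the mitochondrial ribosomal proteins 4 and 5, and the HOX genes 8 and 1. In the same order, 51.35%, 30.77%, 16.67%, 30%, 11.43%, 12.5% and 26.47% of the lists were called. Of 22 glycolytic enzymes none was called without the sets (median 0.20, and -0.03 in the s6G inputs). The fit with the sets called 8 of these higher and 2 lower (45.45%). Over all genes that fit called 17.4%, with 8.95% higher and 8.41% lower.

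Replication-dependent histone genes had the highest median log2 fold change of the lists, over their tested members. Of the 53 such genes that were counted, 12 had enough counts to be tested, and all 12 were above 0, with log2 fold changes from 0.66 to 1.81, a median of 1.18 and 1.03 in the s6G inputs. The expression filter admits a gene through the libraries of a single group, so genes low in MITO libraries could enter through LMNB1 libraries. H4C8 averaged 0.40 CPM in MITO and 1.39 CPM in LMNB1 libraries, and H2BC11 1.52 and 5.64 CPM. H2BC12, at 21.9 and 41.8 CPM, was the best counted of the 12. The direction and median of the list are therefore not independent of the filter. Only H1-2, a linker histone, passed the test, at 6.89, 5.78, 5.67 and 4.58 CPM in MITO libraries and 14.2, 12.4, 20.8 and 12.4 CPM in LMNB1 libraries (log2 fold change 1.37, SE 0.26, edgeR adjusted p = 0.0394), and its call was lost in each of the 8 fits without 1 library. With the sets as a term 9 of the 12 were called, all higher, beside 8.95% of all genes called higher. Of the 12, 5 lie in the 6p stretch, and the median of the other 7 was 1.05. As background, these messages normally carry no polyA tail, the libraries were polyA-selected, and the copies are similar in sequence; the part of RNA carry-over in these values was not tested.

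The 15 mitochondrial mRNAs and rRNAs, encoded in the compartment where the MITO construct places its peroxidase, had a median log2 fold change of -0.28 with no call. With the sets as a term 3 were called, all lower (20%), beside 17.4% of all genes. Mitochondrial DNA took 3.30% to 4.38% of counts in LMNB1 libraries and 3.57% to 5.48% in MITO libraries, means of 3.86% ± 0.55 (SD, n = 4) and 4.63% ± 0.79 (SD, n = 4), and the difference of -0.77 percentage points did not pass an exact two-sided permutation test (p = 0.143, adjusted over 3 shares 0.429; the smallest p possible is 0.0286). Cytosolic ribosomal protein genes took 6.95% of counts in each construct (exact permutation p = 1), and the 50 most counted genes took 12.7% and 12.9% (exact permutation p = 0.857).

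Within each construct the arms differed by biotin-phenol. It gave 0 calls among 13964 genes by edgeR (0%), with 99 genes at an unadjusted p under 0.05 and 0 calls by DESeq2. The interaction of construct and biotin-phenol also gave 0 (0%), with 112 at an unadjusted p under 0.05 and 0 by DESeq2. Both counts at p under 0.05 are fewer than 5% of the genes, so this fit is conservative for these terms, and 0 calls do not show that the arms were alike. With the sets as a term biotin-phenol gave 5 calls (501 at an unadjusted p under 0.05) and the interaction 20 (636). For LMNB1, the interaction was -0.16 on the log2 scale.

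The construct difference was also present in the separate s6G inputs. There 22 of 12896 genes were called (0.171%), 13 higher (0.101%) and 9 lower (0.0698%). Leaving out 1 s6G library gave 4 to 9 calls. Of the 180 genes called without thionucleoside, 166 were tested in the s6G inputs. All 166 had the same sign, beside 69.0% of 10628 expressed genes of log2 CPM of 3 or more, a limit not set on the 166. Of the 166, 20 were called again. Among the 24 leading genes the repeated calls were LMNB1, MAGEA3, BEX1, MAGEA12, MAP7D2 and TFAP2A above 0 and DDR2, SPARC, TIMP3, SNAI2, NEFM, SULF1, TRO and LINC01694 below. TIMP3 read 242 and 212 CPM in MITO s6G inputs and 45.05 and 42.2 CPM in LMNB1 s6G inputs, and DDR2 read 88.0 and 63.1 CPM against 5.60 and 5.47 CPM. A test of the difference of the construct contrast between the s6G inputs and the 8 libraries found 0 of 14097 genes (0%, with 143 at an unadjusted p under 0.05 and 1 call by DESeq2). For LMNB1 that difference was 1.58 on the log2 scale (edgeR adjusted p = 1.00). This fit was conservative too, as for biotin-phenol, so 0 calls do not show that the contrasts were alike. LMNB1 read 5234 and 4114 CPM with s6G and 2150 to 3066 CPM without in LMNB1 cells. In MITO cells it read 170 and 151.3 CPM with s6G and 205 to 321 CPM without.

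**Figure D5:**
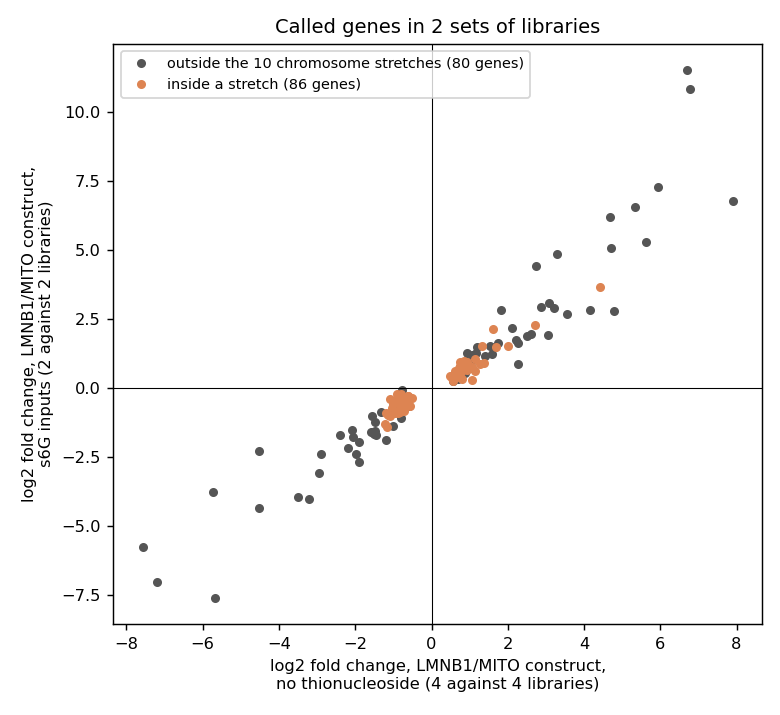
Log2 fold change (LMNB1 over MITO) of the 166 called genes that were also tested in the s6G inputs, without thionucleoside on the x axis (4 against 4 libraries) and in s6G inputs on the y axis (2 against 2), with genes inside the 10 stretches in orange. All 166 points have the same sign on both axes, and the orange points sit mostly near the centre.

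Levels in the s6G inputs of all 4 constructs were compared next. For 87 of the 166 genes the 2 LMNB1 libraries alone lay outside the range of the other constructs' libraries, for 34 the 2 MITO libraries alone did, for 19 both did and for 26 neither. The 166 include genes under a log2 CPM of 3, such as MAGEA2B (1.09), so they differ in level from the expressed genes that follow. Among all 10637 expressed genes of log2 CPM of 3 or more, the LMNB1 libraries lay outside for 7.61% and the MITO libraries for 9.66%. These shares include genes where both did, so the 19 belong with each of the 87 and the 34 when set beside them. MAL2 read 18.8 and 19.9 CPM in LMNB1 cells and at most 0.562 CPM in the 8 other libraries. For DDR2 the MITO line was the outlying one: NES read 7.06 and 8.84 CPM and ERM 5.35 to 6.83 CPM, near the 5.60 and 5.47 CPM of LMNB1 cells and far below the 88.0 and 63.1 CPM of MITO cells. TIMP3 had the same pattern, with 26.2 to 40.2 CPM in NES and ERM cells, near LMNB1 cells. For ESRP2 too the MITO line stood apart, at 1.77 and 3.04 CPM against 7.68 to 22.1 CPM in the other 3 constructs. SNAI2 was the reverse, at 20.2 and 8.20 CPM in LMNB1 cells and 56.3 to 129 CPM in all the others. These genes were chosen for their difference between LMNB1 and MITO cells, so the counts describe them and test nothing.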

How the data were processed

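The authors deposited whole-number gene counts for all 40 libraries, of which the 20 input columns were read and 8 compared. Per the submitters' processing notes, tools included HISAT2 2.1.0, HTSeq 0.7.2 and DESeq2 on GRCh38; the annotation and the strand setting were not stated there, so reads of a gene and of one overlapping it on either strand may be mixed. Per the labels' titles, groups were construct and arm; titles and the series design give s6G for LMNB1 libraries whose characteristics name s4U. Counts were fitted with edgeR 4.0.16 (R 4.3.3; quasi-likelihood, robust, TMM, default expression filter, biotin-phenol as a term, Benjamini-Hochberg over all tested genes, called at 0.05). CPM used TMM over the 20 inputs. The s6G inputs had a fit of their own, and an interaction was fitted over 12 libraries. Positions and promoters came from RefSeq GRCh38.p14, matched by gene ID or symbol. Of 57992 IDs, 56948 had a symbol. Stretches used genes of log2 CPM of 3 or more.

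Named genes were LMNB1, tested lamina genes and up to 4 called genes per list. Added to these were the 12 highest and 12 lowest called genes whose groups did not overlap and whose average log2 CPM reached 4. Cell type markers are given as levels. Every other gene is to be read as chosen after its values were seen, also where the text does not say so. Examples are DIAPH3, FOXA1, ATF4, ALDH1L2, CHAC1, COL5A2 and COL3A1. The libraries and gene lists were chosen with earlier results of these data known. Same-numbered libraries deviated together between LMNB1 RNA, LMNB1 ctrl and MITO ctrl (r 0.69 to 0.80) and oppositely where MITO RNA was 1 of the pair (r -0.71 to -0.62), so the numbers as labelled do not pair all groups; a fit that swaps the numbers of MITO RNA was added after seeing the data. On simulated counts for this comparison (13964 genes, 200 changed), 79% of 2-fold and 98% of 4-fold changes were recovered, with 13 false calls. The simulated libraries varied independently, without the 2 sets or the chromosome stretches, so these rates may not hold for the real libraries. Alternatives were other scalings, filters and tools (DESeq2 1.42.0, limma 3.58.1), leaving out each library and other designs. Intervals on ratios of counts cover counting error only.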

Additional observations from a re-analysis of the deposited data

Results flagged for a closer look

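In 170 groups of 4 libraries (72 called genes, 10 stretches and 3 shares in each construct), 11 single libraries lay far from the other 3, where chance flags about 1 in 20. That rate does not apply where the other 3 libraries have no count, because any count is then flagged. MITO RNA 2 was such a library for 6 genes: MAL2 (0.165 CPM), CDH7 (0.165 CPM) and MAGEB2 (1.16 CPM), each with no count in the other MITO libraries, and BEX4 (107 CPM against 77.2 to 82.1), VIM (366 CPM against 264 to 272) and LINC01694 (23.0 CPM against 47.1 to 52.0). LMNB1 ctrl 2 was one for FOXA1 (23.5 CPM against 17.2 to 17.7) and RNASET2 (16.4 CPM against 10.3 to 10.8). MITO ctrl 1 had 21.5 CPM of RNASET2 against 29.9 to 31.0 CPM and a median deviation of 0.34 in the 13q stretch against 0.13 to 0.15, and MITO ctrl 2 had 308 CPM of SARS1 against 277 to 280.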

How the results depend on the processing

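The count of 180 called genes stayed within 1.5 times under RLE scaling, total counts, limma-voom (with and without correlated numbers), a filter at 5 CPM, omission of LMNB1 and scaling on genes outside the stretches (added after seeing the data). It was 352 without the biotin-phenol term, 486 with all 20 inputs in the fit, 543 with DESeq2, 721 without a filter, 61 with the RNA and ctrl counts of a number summed, 10 in the RNA arm alone and 5 in the ctrl arm alone (2 against 2 libraries each). Without any 1 library it was 47 to 90. The replicate block gave 147 calls for the construct and 634 in the s6G inputs in place of 22; as labelled, the numbers pair LMNB1 RNA, LMNB1 ctrl and MITO ctrl but run the other way in MITO RNA. The crossed pairing, added after seeing the data, puts MITO RNA 1, MITO ctrl 2, LMNB1 RNA 2 and LMNB1 ctrl 2 in 1 block and the other 4 in another, and gave 2424 calls for the construct, 5 for biotin-phenol and 20 for their interaction. The s6G inputs gave 47 calls with DESeq2, 124 without a filter, and 4 to 9 without 1 library (in a fit where a lone library is assumed to vary like the other groups). Without a filter biotin-phenol gave 4 calls and its interaction with the construct 4, and DESeq2 gave 1 for the difference between the sets; leaving out 1 library gave 0 for both biotin-phenol terms. Differences in shares of counts (percentage points, LMNB1 minus MITO) ranged from -1.13 to -0.49 for mitochondrial DNA, -0.22 to 0.12 for ribosomal protein genes and -0.41 to 0.25 for the top 50 without 1 library; in the RNA arm the last 2 were -0.30 and 0.47, opposite to 0.0017 and -0.17 in all 8. The number of stretches was 11 and 10 with windows of 21 and 81 genes and 17 with a threshold of 0.20, all added after seeing the data, and the medians of the 10 kept their sign under total counts and the stricter filter. Of 1766 values for 74 named genes under these settings, 418 lost their call, 2 gained one and 1 turned direction, BEX2 in the ctrl arm (0.046), which was not called. The causes were not tested. Depth limits genes under about 1 CPM, which no library counts more than a few times.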

Other observations

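A few further genes outside the chromosome stretches are given here, all named after their values were seen. GABRA2, a subunit of the GABA-A receptor, had no count in MITO libraries and 81 in LMNB1 libraries (at least 23.0-fold higher when 3 counts are allowed to the group), and NALCN, a sodium leak channel, had 0 and 61 (at least 17.3-fold higher); both calls were lost when 1 library was left out, in 7 and 8 of 8 fits. CDH7, a cadherin, had 1 and 110 counts (ratio 93.8, 95% counting interval 16.5 to 3738), and its call was lost without MITO RNA 2 (edgeR adjusted p = 0.0612). BMP2, a secreted growth factor, read 4.29 to 6.45 CPM in MITO libraries and 16.5 to 23.5 CPM in LMNB1 libraries (log2 fold change 1.82, SE 0.19, edgeR adjusted p = 0.00218), and its call held without any 1 library. KRTAP19-1, a hair keratin-associated protein, read 0.165 to 3.21 CPM against 16.1 to 20.0 CPM (log2 fold change 3.54, SE 0.52), a call lost without LMNB1 RNA 2 (edgeR adjusted p = 0.0541). PURPL, a long noncoding RNA, read 13.04 to 32.2 CPM against 3.60 to 7.28 CPM (log2 fold change -2.09, SE 0.36, edgeR adjusted p = 0.0268), a call lost in 5 of the 8 fits without 1 library.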
